A study of Homo sapiens with 2 samples.

Results

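Glycolysis breaks glucose down to pyruvate in the cytosol, and lactate dehydrogenase then turns pyruvate into lactate while it restores the NAD+ that GAPDH needs. Its enzymes are abundant in most cells, so that mRNAs such as GAPDH and PGK1 are common reference genes, and tumour cells are known for a high rate of this pathway. The mRNAs of 10 enzymes of the pathway, GPI, ALDOA, ALDOC, TPI1, GAPDH, PGK1, PGAM1, ENO1, LDHA and LDHB, were followed here in RNA recovered on beads that carried either an IMP1 antibody or control IgG. They were taken by gene name from a table of 18781 genes, in which all 10 were found. Hexokinase, phosphofructokinase and pyruvate kinase, the other steps of the pathway, are described further on from a separate list.

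The study asked which lncRNAs associate with IMP1, an RNA-binding protein encoded by IGF2BP1 that is known for the localization, stability and translation of its target mRNAs. RNA immunoprecipitation (RIP) was performed in T47D, an established luminal breast cancer cell line, and the RNA recovered from the beads was sequenced. The data hold 2 libraries, 1 from beads coated with anti-IMP1 antibody and 1 from beads coated with normal IgG, both from T47D cells labelled WT with no further treatment. With 1 library per antibody no value has a replicate error and no test was possible, so that a difference is given as its size alone and a gene is called higher or lower when it is past 2-fold. Neither library is of total lysate, so the level of an mRNA in the cells and its recovery on the beads cannot be told apart, and GAPDH, which the study uses as a negative control in RIP with another antibody, has no such role for these libraries in the labels.

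The values are FPKM, fragments scaled by transcript length and by library size, which allows levels of different genes to be compared. Their sum was 353885 with the IMP1 antibody, where 17579 genes were above 0, and 1298363 with IgG, where 11511 genes were, and the depth of both is unknown. Of 15 markers of luminal breast epithelium, 10 were past 2-fold upwards with the IMP1 antibody and 0 downwards, against 39.9% and 29.9% of all genes. Their summed level was 1892 FPKM with the IMP1 antibody and 786 FPKM with IgG, and 3 of them were listed at 0 with IgG. Of 15 mesenchymal markers, which T47D cells should express little, 13 were past 2-fold downwards with that antibody (11 at equal sums). Of all genes 29.9% were (13.0% at equal sums). The 15 markers had a sum of 5.86 FPKM against 243 FPKM with IgG, and 6 were listed at 0 with the IMP1 antibody, including COL1A2, DCN and LUM. Of 10 blood cell markers 3 were in the table, with a sum of 6.53 FPKM with the IMP1 antibody and 322 FPKM with IgG, of which CD74 had 6.42 FPKM and 305 FPKM. Of these 3, 2 were lower and 1 was higher, CD14, at 0.103 FPKM and listed at 0 with IgG. The part of these differences in the values of the glycolytic enzymes was not tested.

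The 10 enzymes together had 806 FPKM with the IMP1 antibody and 538 FPKM with IgG (log2 ratio 0.58, positive on every scale tried). They made up 0.228% of all FPKM with the IMP1 antibody and 0.0414% with IgG. The mitochondrial rRNAs MT-RNR1 and MT-RNR2 alone held 37.7% of all FPKM with the IMP1 antibody and 52.5% with IgG. Without these rRNAs the share of the enzymes was 0.365% and 0.0872%. Of the 10 mRNAs, 7 had the higher value with the IMP1 antibody and 3, PGK1, ENO1 and LDHB, with IgG, although at equal sums of both libraries all of these 3 had the higher value with the IMP1 antibody too. PGAM1, TPI1, GAPDH and ALDOC were at least 2-fold higher with the IMP1 antibody, LDHB was at least 2-fold lower on the values as deposited, and the other 5 were within 2-fold.

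**Figure D1:**
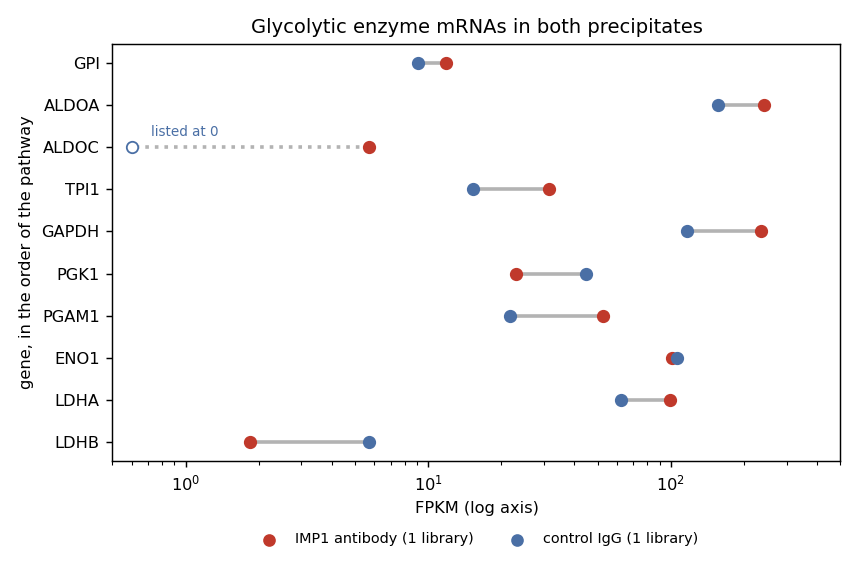
FPKM (log axis) of the 10 enzyme mRNAs with the IMP1 antibody (red) and with control IgG (blue), in the order of the pathway, with 1 library each, so that no error can be drawn. The red point lies to the right for 7 genes, to the left for PGK1, ENO1 and LDHB, and the open circle marks that ALDOC was listed at 0 with IgG.

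Upstream of the split into trioses, GPI, which converts glucose 6-phosphate into fructose 6-phosphate, had 11.9 FPKM with the IMP1 antibody and 9.10 FPKM with IgG, a ratio of 1.31. ALDOA, the main aldolase of most tissues, had 243 FPKM and 156 FPKM, a ratio of 1.55, and was the highest of the 10 in both libraries. ALDOC, the aldolase known best from brain, had 5.70 FPKM with the IMP1 antibody and was listed at 0 with IgG, so that no fold change can be given for it. At such a level a zero is not rare, because 604 of the 3556 genes with 3 to 10 FPKM in the IMP1 library, 17.0%, were also listed at 0 with IgG, while 2.94% of those with at least 100 FPKM were. TPI1, which interconverts the trioses, had 31.6 FPKM and 15.3 FPKM, a ratio of 2.06.

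GAPDH, the dehydrogenase that oxidizes glyceraldehyde 3-phosphate, had 236 FPKM with the IMP1 antibody and 117 FPKM with IgG. Its ratio of 2.02, a log2 ratio of 1.01 for FPKM + 0.1, placed it barely past the 2-fold threshold. GAPDH was the second highest of the 10 mRNAs in either library, at rank 110 among all genes of the IMP1 library and rank 272 of the IgG library. PGK1, the kinase of the next step and the one that makes ATP from 1,3-bisphosphoglycerate, went the other way, with 22.9 FPKM and 44.6 FPKM, 1.95-fold more with IgG and thus barely inside the threshold on this scale (log2 ratio -0.96, but 0.91 at equal sums). PGAM1, the mutase that follows, had 52.7 FPKM and 21.7 FPKM, a ratio of 2.43, which was the largest of the 9 enzymes above 0 in both libraries. ENO1, the main enolase outside muscle and neurons, had 101 FPKM and 106 FPKM, a ratio of 0.953 that passed 1 on each of the other scales given below.

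At the end of the pathway the lactate dehydrogenase subunits parted. LDHA, the subunit linked to lactate production, had 99.4 FPKM with the IMP1 antibody and 62.1 FPKM with IgG, a ratio of 1.60. LDHB, the heart-type subunit, was the lowest of the 10 in the IMP1 library at 1.84 FPKM and had 5.69 FPKM with IgG, 3.09-fold more, a direction that turned at equal sums (log2 ratio 0.24). The ratio of LDHA to LDHB was therefore 54.0 with the IMP1 antibody and 10.9 with IgG, a 4.95-fold difference that no scaling of a library can change. The share of LDHB in the sum of both subunits was 1.82% and 8.40%, and its call rests on low values.

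The mRNAs of consecutive or nearby steps thus did not stand in the same proportion in both libraries. The part of recovery on the beads in this was not tested. The ratio of PGAM1 to PGK1 was 2.30 with the IMP1 antibody and 0.487 with IgG, 4.73-fold apart, so that their order was exchanged. For the GAPDH row alone, without the row that shares its locus (described below), the ratio of GAPDH to PGK1 was 10.3 and 2.62. That of GAPDH to ENO1 was 2.33 and 1.10. The order of the levels otherwise held at the top, where ALDOA, GAPDH, ENO1 and LDHA followed each other in both libraries. ALDOA and GAPDH made up 30.1% and 29.3% of the sum of the 10 enzymes with the IMP1 antibody, and 29.1% and 21.7% of it with IgG, while the share of ENO1 was 12.6% and 19.7% and that of PGK1 was 2.84% and 8.28%.

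The counts of enzymes past 2-fold were set against the same counts over the table. Of all 18781 genes, 39.9% were past 2-fold upwards with the IMP1 antibody and 29.9% downwards, against 4 and 1 of the 10 enzymes, so that the count of higher enzymes was at this background and that of lower enzymes was below it. Of the 7488 higher genes only 793 reached 1 FPKM on both sides, so the 6909 genes that did are a closer background for abundant mRNAs, and 9 of the enzymes are among them, ALDOC being left out by its zero. Of these genes 11.5% were higher and 44.0% were lower by this measure, and of the 9 enzymes 3 (GAPDH, TPI1 and PGAM1) were higher and 1 (LDHB) was lower. The median log2 ratio was 0.63 over the 9 enzymes and -0.78 over the 6909 genes, and 7 of the 9 lay above the latter. Among the 1628 genes that reached 10 FPKM on both sides, a limit chosen after the values were seen, 9.58% were higher and 31.6% were lower with a median of -0.46. Of the 7 enzymes at that level 3 were higher and 0 were lower, with a median of 0.68. This limit leaves out GPI (9.10 FPKM with IgG) and LDHB (5.69 FPKM with IgG), the only lower enzyme. With 10 genes chosen by name and 1 library per antibody, these shares describe the libraries and carry no test.

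**Figure D2:**
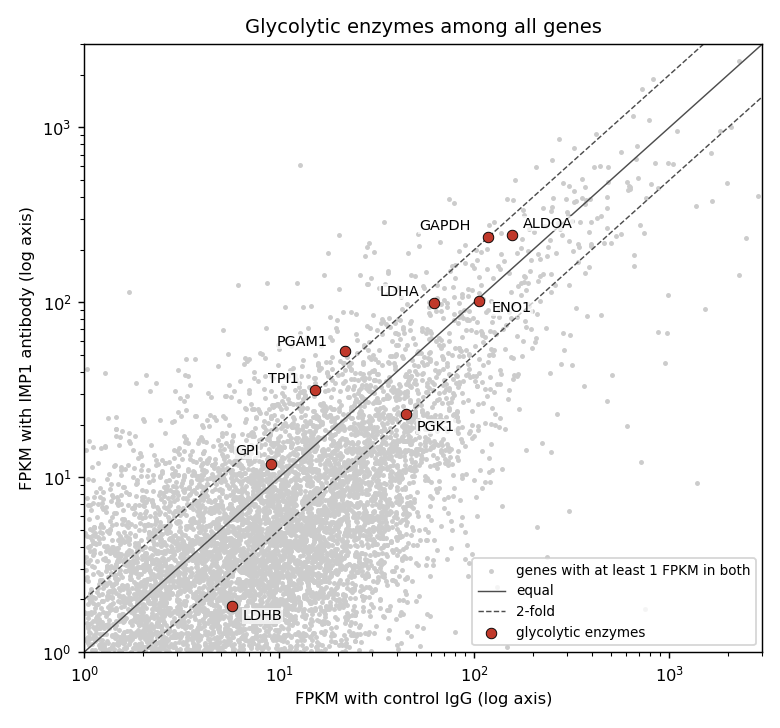
FPKM with the IMP1 antibody against FPKM with control IgG (both axes log) for the 6909 genes that reached 1 FPKM on both sides (grey) and the 9 enzymes among them (red). The solid line marks equal values and the dashed lines 2-fold, GAPDH, TPI1 and PGAM1 lie at or above the upper dashed line, and most grey points lie below the solid line.

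The log2 ratio of PGAM1, 1.28, was above that of 91.7% of the 6909 genes. TPI1 (1.04) was above 89.1% of them, GAPDH (1.01) above 88.6%, LDHA (0.68) above 84.0%, ALDOA (0.63) above 83.2% and GPI (0.38) above 78.7%. ENO1 (-0.07) was above 68.0%, PGK1 (-0.96) above 45.0% and LDHB (-1.58) above 28.9%. GAPDH thus lay in the upper part of the table without standing at its edge, and PGK1 lay close to the middle.

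How many enzymes counted as higher depended on how the libraries were put on 1 scale, because their sums differ 3.67-fold. Setting the median ratio of the 6909 genes to 1 shifts every log2 ratio by 0.79, and 7 of the 10 enzymes were then past 2-fold upwards and 0 downwards, against 49.3% and 21.3% of all genes. GAPDH then had a log2 ratio of 1.81, PGAM1 of 2.07 and TPI1 of 1.83, ENO1 changed sign to 0.72, PGK1 was at -0.17 and LDHB at -0.82. Equal sums without the 50 highest genes of either library shift the ratios by 0.57, which left 6 enzymes higher and 1 lower, against 46.3% and 23.5% of all genes. Equal sums over all genes shift them by 1.88, which put 8 enzymes past 2-fold upwards and turned PGK1 to 0.91 and LDHB to 0.24, while 63.7% of all genes were then higher and 13.0% lower.

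**Figure D3:**
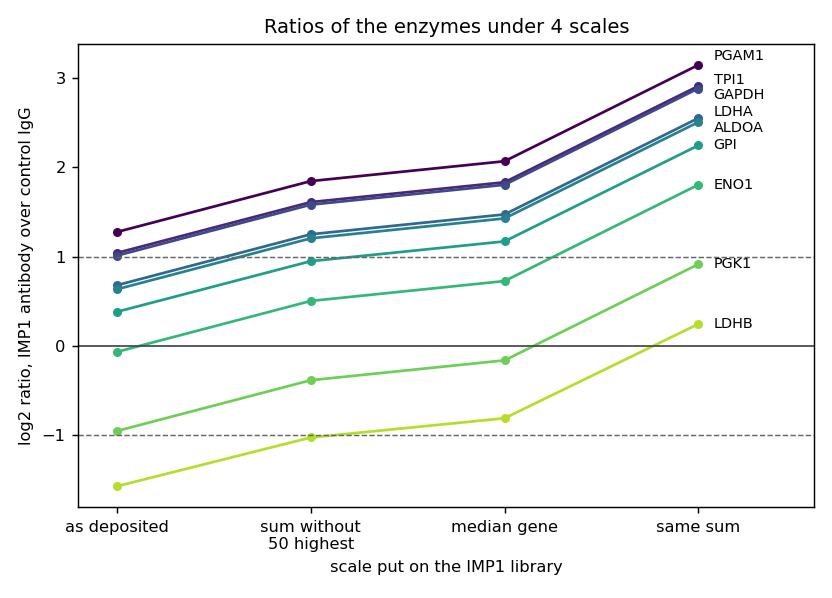
Log2 ratio of (FPKM + 0.1), IMP1 antibody over control IgG, of the 9 enzymes above 0 in both libraries under 4 scales put on the IMP1 library, with lines joining the values of a gene and dashed lines at 2-fold. All lines move up together, GAPDH goes from 1.01 as deposited to 2.89 at equal sums, and LDHB goes from -1.58 to 0.24.

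Because GAPDH and PGK1 serve as reference genes, GAPDH was set beside 14 other common reference genes, a comparison within each library that no scale touches. Of the 13 of these above 0 in both libraries, GAPDH was relatively higher in the IMP1 library for 12 and relatively lower for 1, the transferrin receptor TFRC. The ratio of GAPDH to ACTB, the mRNA of beta-actin, was 0.330 with the IMP1 antibody and 0.0715 with IgG. Its ratio to B2M, the light chain of MHC class I, was 1.01 and 0.0473, a 21.5-fold difference. Against PPIA (cyclophilin A), with 0.204 and 0.180, RPLP0 (a ribosomal stalk protein), with 0.492 and 0.412, and SDHA (a subunit of succinate dehydrogenase), with 20.8 and 18.0, it differed by 1.13-, 1.19- and 1.16-fold. The value of GAPDH relative to another reference gene therefore spanned from near equality to a wide gap, depending on the gene it was divided by. The count of 12 holds for the GAPDH row alone. With the row that shares its locus added, described below, the ratio of IMP1 antibody to IgG for GAPDH was 1.685. That was below the ratios of PPIA (1.78), SDHA (1.74), RPLP0 (1.688) and TFRC (2.64).

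**Figure D4:**
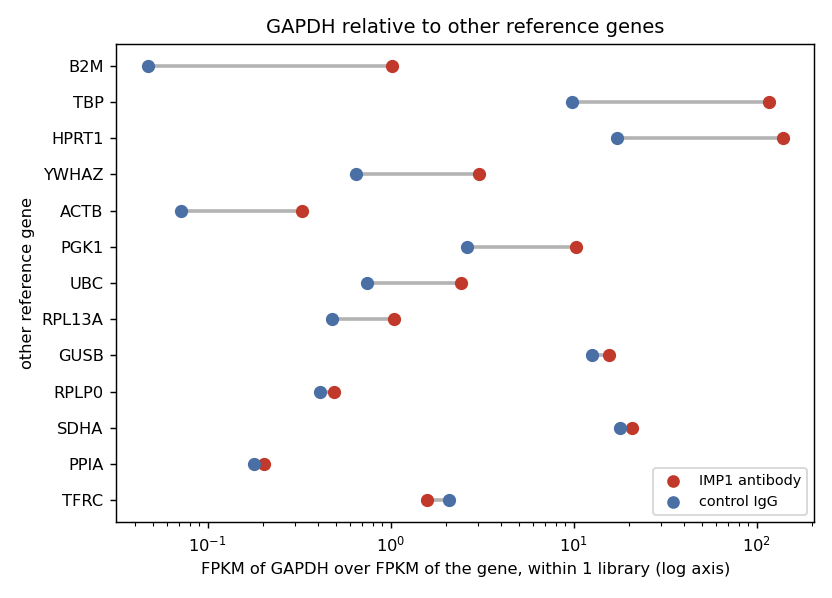
FPKM of GAPDH divided by the FPKM of each of 13 other reference genes (log axis), with the IMP1 antibody (red) and with control IgG (blue), 1 library each. The points almost meet for PPIA, SDHA and RPLP0, lie 21.5-fold apart for B2M, and have the opposite order for TFRC.

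GAPDH (ENSG00000111640) lies at chr12:6643093-6647537 in hg19, and a second row of the table, RP5-940J5.9 (ENSG00000269968), has exactly this locus. RP5-940J5.9 had 139 FPKM with the IMP1 antibody and 105 FPKM with IgG, a ratio of 1.32, which is 58.9% of the level of GAPDH with the IMP1 antibody and 90.0% of it with IgG. Whether reads were counted by strand or split between overlapping rows is not given in the sources used here, so the division between both rows is uncertain. Added together they had 375 FPKM and 222 FPKM, a ratio of 1.69 and a log2 ratio of 0.75, and on this sum, an alternative chosen after the values were seen, GAPDH was no longer past 2-fold. The call for GAPDH on the deposited values thus held for its own row and not for this sum. A sum of FPKM does not divide the reads anew, so the part of that division in the call was not tested.

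Of the other enzymes, ALDOA (chr16:30064411-30081778), PGK1 (chrX:77320685-77384793), PGAM1 (chr10:99185917-99193198), LDHA (chr11:18415935-18429972) and LDHB (chr12:21788276-21928515) shared their locus entry with no other row. ENO1 (chr1:8921061-8939953) shared it with ENO1-IT1, an intronic transcript at 0.549 FPKM with IgG and listed at 0 with the IMP1 antibody. GPI (chr19:34850385-34919178) shared it with PDCD2L, at 2.05 FPKM and 13.4 FPKM, and with a row near 0, RP11-618P17.4. TPI1 (chr12:6976283-7032861) shared it with 5 rows, including ENO2, which together had 2.21 FPKM and 5.39 FPKM. ALDOC lay in a long merged entry (chr17:26782770-26972472) with 9 other rows, which together had 68.6 FPKM and 32.3 FPKM. RP11-192H23.7, 1 of these rows, had values like those of ALDOC, with 5.63 FPKM with the IMP1 antibody and a listing at 0 with IgG.

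GAPDH is also known for many processed pseudogenes, near copies of its mRNA elsewhere in the genome that can take up its reads. The table held 17 rows named as pseudogenes of the 10 enzymes, 10 of them of GAPDH. The GAPDH pseudogenes summed to 1.49 FPKM with the IMP1 antibody and 0.326 FPKM with IgG, 0.631% and 0.279% of GAPDH itself. LDHAP4, at 0.856 FPKM and 3.22 FPKM, was the highest, and both LDHA pseudogenes together came to 0.962% and 5.19% of LDHA. Adding the pseudogenes to their enzymes left the log2 ratio of GAPDH at 1.02 and moved that of LDHA from 0.68 to 0.62, so that no call changed.

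The remaining enzymes of glycolysis, 13 of 23 listed genes found in the table, had counts near those of all genes. Of these, 5 were past 2-fold upwards with the IMP1 antibody and 4 downwards, against 39.9% and 29.9% of all genes, with a median log2 ratio of 0.33 against 0.40. Their 7 genes that reached 1 FPKM on both sides had 0 higher and 3 lower, against 11.5% and 44.0% of such genes, and a median of -0.61 against -0.78, a median that was above 0 at the scale of the median gene (0.18) and at equal sums (1.26). PKM, the pyruvate kinase of most tissues and the highest of them, had 49.96 FPKM with the IMP1 antibody and 76.4 FPKM with IgG, 1.53-fold more with IgG as deposited but less at these 2 scales. HK1, the hexokinase of most tissues, had 6.54 FPKM and 5.17 FPKM, within 2-fold.

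Phosphofructokinase, the committed step of the pathway, is made from 3 genes that did not move together. PFKM, the muscle-type subunit, was higher with the IMP1 antibody, at 4.13 FPKM against 0.977 FPKM. PFKP, the platelet type, was lower, at 3.31 FPKM against 18.0 FPKM, and so was PFKL, the liver type, at 3.90 FPKM against 8.78 FPKM. The ratio of PFKM to PFKP was 1.25 with the IMP1 antibody and 0.0542 with IgG, 23.0-fold apart. On the other scales PFKM stayed higher (log2 ratios 2.53 to 3.82) and PFKP kept its sign (-1.85 to -0.57), while PFKL turned to 0.70 at equal sums. ADPGK, an ADP-dependent glucokinase, had 5.24 FPKM and 0.388 FPKM. The minor isoenzymes were low, with ENO3, the muscle enolase, at 2.07 FPKM and 4.90 FPKM (lower as deposited, 0.62 in log2 ratio at equal sums), PGAM4 at 2.19 FPKM and 1.45 FPKM, and BPGM, which makes 2,3-bisphosphoglycerate, at 1.77 FPKM and 1.39 FPKM. PGAM4 is a retrocopy of PGAM1 in origin, and the reads of both may be hard to tell apart.

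Glucose enters and lactate leaves the cell through transporters of the SLC2A and SLC16A families. Of 11 listed glucose and lactate transporter genes 9 were in the table, 4 were higher, all 4 listed at 0 with IgG, and 2 were lower, against 39.9% and 29.9% of all genes, and neither of the 2 that reached 1 FPKM on both sides was called. SLC2A1, the main glucose transporter of tumour cells, had 3.11 FPKM with the IMP1 antibody and was listed at 0 with IgG. SLC2A8 had 2.97 FPKM and SLC16A1, a lactate transporter, had 1.09 FPKM, and both were listed at 0 with IgG. SLC2A4, the insulin-responsive glucose transporter, had 0.198 FPKM and 2.08 FPKM, and SLC2A10 had 0.566 FPKM and 1.40 FPKM, lower as deposited but 0.54 in log2 ratio at equal sums. SLC16A3, the lactate exporter linked to glycolytic cells, had 6.99 FPKM and 11.99 FPKM, and BSG, the chaperone of these lactate transporters, had 113 FPKM and 105 FPKM, a ratio of 1.07.

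**Figure D5:**
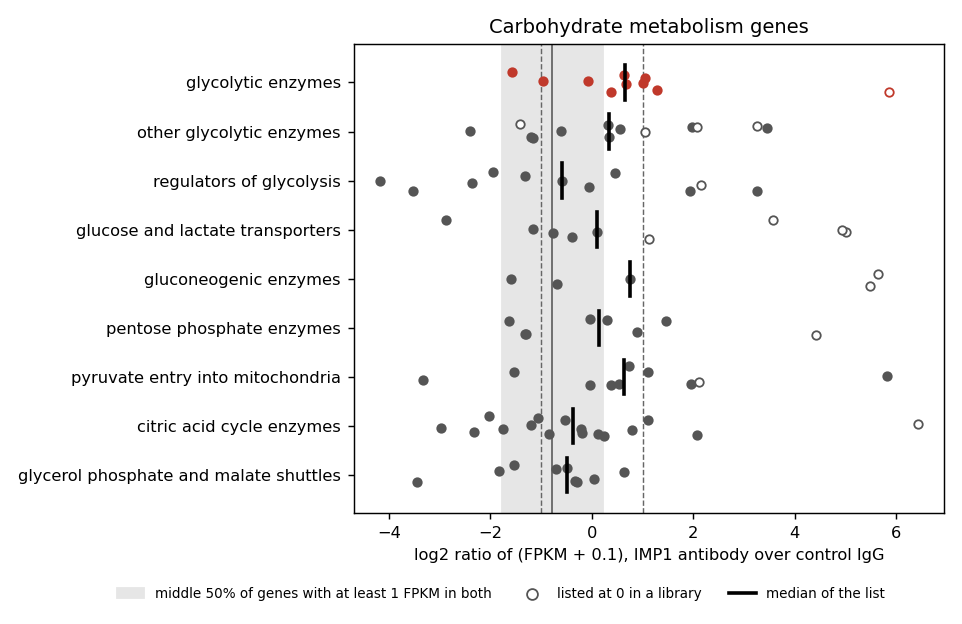
Log2 ratio of (FPKM + 0.1), IMP1 antibody over control IgG, for each gene (points) of 9 lists, with the median of each list (black bar), 2-fold (dashed lines) and the median and middle 50% of the 6909 genes above (grey line and band). Open circles are genes listed at 0 in a library, whose ratio is set by the pseudocount. The 10 glycolytic enzymes have a median of 0.66, the citric acid cycle enzymes of -0.37.

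Pathways that branch from glycolysis or follow it are given by the same counts, for which the shares of all genes are again 39.9% higher and 29.9% lower, or 11.5% and 44.0% from 1 FPKM on both sides. The 16 citric acid cycle enzymes had 3 genes higher and 6 lower. Their median of -0.37 turned to 0.42 at the scale of the median gene, against 0.40 and 0.96 over all genes. From 1 FPKM on both sides 2 of 14 were higher and 5 were lower, and their median of -0.37 stood above the -0.78 of all such genes. Of the cycle's enzymes, MDH2, the mitochondrial malate dehydrogenase, was higher, at 97.2 FPKM against 45.0 FPKM, while CS, the citrate synthase, had 30.6 FPKM and 44.3 FPKM, SDHC, an anchor subunit of succinate dehydrogenase, had 40.4 FPKM and 46.3 FPKM, and SDHD, its other anchor subunit, had 25.3 FPKM and 23.2 FPKM. MDH1, the cytosolic malate dehydrogenase of the shuttle that returns NAD+ to GAPDH, was lower, at 14.0 FPKM against 40.6 FPKM. Its log2 ratio was -1.53 as deposited and 0.34 at equal sums. GOT1 (15.3 FPKM and 18.7 FPKM) and GOT2 (12.6 FPKM and 17.8 FPKM), of the same shuttle list, were within 2-fold. The 9 genes of the glycerol phosphate and malate shuttles had 0 higher and 3 lower with a median of -0.50, which was 0.29 at the scale of the median gene, and the 8 of them from 1 FPKM on both sides had 3 lower and a median of -0.60. Of 8 pentose phosphate enzymes 2 were higher and 3 were lower, and of the 6 from 1 FPKM on both sides 1 was higher and 2 were lower. PGD, the phosphogluconate dehydrogenase, had 19.1 FPKM and 47.8 FPKM (lower as deposited, 0.55 in log2 ratio at equal sums). TALDO1, the transaldolase, had 25.6 FPKM and 26.1 FPKM. Of 5 gluconeogenic genes 2 were higher, both listed at 0 with IgG, and 1 was lower. Of the 2 from 1 FPKM on both sides 0 were called. G6PC3, a glucose 6-phosphatase outside the liver, had 48.9 FPKM and 28.9 FPKM, while SLC37A4 had 14.7 FPKM and 23.8 FPKM.

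The genes most like GAPDH over these 2 libraries, by the distance of log2(FPKM + 0.1) values and outside the lists used here, were MTND1P23, CALR, TMBIM6, RPL18 and RPSA. MTND1P23, a nuclear copy of a mitochondrial gene, had 202 FPKM with the IMP1 antibody and 116 FPKM with IgG. CALR, the endoplasmic reticulum chaperone calreticulin, had 275 FPKM and 118 FPKM, and TMBIM6, an endoplasmic reticulum membrane protein, had 249 FPKM and 138 FPKM. RPL18, of the large ribosomal subunit, had 286 FPKM and 126 FPKM, and RPSA, of the small subunit, had 194 FPKM and 108 FPKM. With a likeness over 2 values, this names genes listed at levels near those of GAPDH and nothing more.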

How the data were processed

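RNA from 2 precipitates of T47D cells, 1 with an IMP1 antibody and 1 with normal IgG, was sequenced, and each library forms a group by itself. The authors deposited FPKM per gene, with genome build hg19 per the labels. Aligner, FPKM software, annotation and strand are not given in the sources used here. The deposited table also holds a fold change, p-values and q-values of the authors' own comparison, which were not used, nor were the other deposited lists, which hold the genes called in that comparison. IGF2BP1 itself was not analysed here. Locus starts are 0-based in the table and were raised by 1. Values of 1e-05 were read as 0.

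The log2 ratio of (FPKM + 0.1), IMP1 over IgG, was computed for 18781 genes, and the pseudocount makes changes of low genes look smaller. Genes past 2-fold were called. With 1 library per group no test was run, and with FPKM alone the depth is unknown. Folds in the text are ratios of FPKM. The enzymes and the 12 other gene lists were chosen with earlier results of these data known. All 10 enzymes were named, and of other glycolytic enzymes and transporters those above 1 FPKM in either library. Of the remaining lists some, not all, of the genes that reached 10 FPKM on both sides were named. Some cell type markers, SDHA and genes under the other observations were named although they did not reach it. All 10 Ensembl identifiers matched their symbol. Alternatives were pseudocounts, filters, scales, thresholds and the addition of pseudogenes. The calculation was tested on simulated data. Python 3.11.15, numpy 2.4.6, pandas 2.3.3 and matplotlib 3.10.9 were used.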

Additional observations from a re-analysis of the deposited data

How the results depend on the processing

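No paired analysis was possible because each antibody has 1 library. For the same reason no library could be left out, and with no replicates and no depth there is no spread by which to judge a shift. The log2 value of ALDOC, set by its zero, is not a measurement and went with the pseudocount. With the median gene as scale, the 4 enzymes higher and 1 lower became 7 and 0, the log2 ratio of GAPDH 1.81, the median of the 10 enzymes 1.45, that of the other glycolytic enzymes 1.12 and that of the summed FPKM 1.38. With equal sums these were 8 and 0, 2.89, 2.53, 2.19 and 2.46, and LDHB was reversed, at 0.24. With equal sums without the 50 highest genes the ratios were 1.58, 1.23, 0.90 and 1.15.

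At a threshold of 1.5-fold 6 enzymes were higher and 2 were lower, and at 4-fold 1 was higher, ALDOC with its zero, and 0 were lower. The shares of all genes past these 2 thresholds are not given here, so these counts cannot be set against the table. A pseudocount of 1 gave a median of 0.65 for the enzymes and 0.21 for the other glycolytic enzymes. It took TPI1 just under 2-fold, leaving 3 higher, a count for which the share of all genes is not given here either. A pseudocount of 0.01 gave 0.34 for the other enzymes. The median of the enzymes was 0.63 with genes above 0 on both sides, with genes from 1 FPKM and with pseudogenes added (GAPDH 1.02). It was 0.68 with genes from 10 FPKM, where 0 were lower because LDHB was left out. The median of the other glycolytic enzymes was -0.61 with genes from 1 FPKM and from 10 FPKM, the last being PKM alone. The row that shares its locus with GAPDH, added to it, gave 0.75 for GAPDH and 0.55 for the summed FPKM. The filter of 10 FPKM and this last sum were chosen after seeing the data.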

Other observations

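Further genes were noticed after their values were seen. The bifunctional enzymes that make and remove fructose 2,6-bisphosphate, the activator of phosphofructokinase, were unlike each other. PFKFB3, known from proliferating cells, had 32.1 FPKM with the IMP1 antibody and 8.33 FPKM with IgG, while PFKFB2 had 2.03 FPKM and 24.3 FPKM. C12orf5, the older name of TIGAR, a fructose 2,6-bisphosphatase, had 0.493 FPKM and 10.6 FPKM. Of 11 regulators of glycolysis measured here, 3 were at least 2-fold higher and 5 were at least 2-fold lower, against 39.9% and 29.9% of all genes, with a median log2 ratio of -0.59 that became 0.20 at the scale of the median gene. Over all genes these medians were 0.40 and 0.96. Of the 7 regulators that reached 1 FPKM on both sides 1 was higher and 3 were lower, against 11.5% and 44.0% of all such genes.

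Subunits of the pyruvate dehydrogenase complex, which takes pyruvate into the citric acid cycle, also came at unequal ratios. PDHA1, the alpha subunit of its E1 enzyme, had 24.7 FPKM with the IMP1 antibody and 19.0 FPKM with IgG, and its partner PDHB had 11.4 FPKM and 0.103 FPKM. DLD, the E3 enzyme, had 1.499 FPKM and 15.9 FPKM. Of the 10 genes for pyruvate entry into mitochondria 4 were at least 2-fold higher and 2 were at least 2-fold lower, against the same 39.9% and 29.9%. Their median log2 ratio of 0.64 was 1.43 at the scale of the median gene, against 0.40 and 0.96 over all genes. Of the 7 that reached 1 FPKM on both sides 1 was higher and 2 were lower, against 11.5% and 44.0% of such genes. The median of these 7 was 0.38 against -0.78.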
